A study of Drosophila melanogaster with 3 samples.

Results

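zld, Clamp, grh and opa encode 4 Drosophila melanogaster transcription factors that have been described as early openers or primers of chromatin, as has GAGA factor, which Trithorax-like (Trl) encodes. The peaks described here are those of GAGA factor, measured by ChIP-seq, and the question was where this factor was recovered at the genes of the other early factors. Chromatin came from whole embryos of the strain Trl-MiMIC-GFP, of mixed sex and 0 to 24 h of age. In this strain an eGFP exon inserted in an intron of Trl tags the protein, which was recovered with an antibody against GFP. All samples carry the tagged allele and form 1 group of 3 biological replicates, so no condition was compared with another. Whole embryos mix all cell types and all stages of this period, so a peak may come from any of them. The 4 genes were taken by name out of 13945 protein-coding genes, and a peak was assigned to a gene when its summit lay in the gene body or within 5 kb of it, an interval called the window below. The windows held 5 of the 4900 peaks that passed the authors' reproducibility threshold (the optimal peaks) and 39 of the 30000 peaks of the pooled list, which also contains background. The replicate lists of 30000 peaks each held 38, 41 and 29 peaks there in replicates 1, 2 and 3. Peaks were ordered by the authors' signal value within a list, rank 1 being the strongest, and the lists give no read totals, so depth is unknown.

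Zelda, the product of zld, is a maternally supplied zinc finger protein that binds CAGGTAG-like sites and activates the first zygotic genes. CLAMP, another zinc finger protein, recognises GA repeats, as GAGA factor does, and helps to bring the MSL dosage compensation complex to the male X chromosome. Grainyhead, the product of grh, is the conserved regulator of epithelial and cuticle genes. Odd-paired, the product of opa, is a ZIC family zinc finger protein that changes the regulation of the segmentation genes at gastrulation. Pioneer factors of this kind bind sites in closed chromatin and make them accessible to other proteins.

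The sequences below show peaks of these genes with and without the GAGA factor core site. They are the 201 bases centred on the summit in dm6, on the plus strand and 5' to 3', with GAGAG on either strand (CTCTC on the strand printed) and the Odd-paired core CCCGCTG in capitals. They show the optimal peak inside zld, a weaker peak upstream of zld, the promoter peak and a coding exon peak of Clamp, and the promoter peak of opa. The sequence of the grh peaks is not printed here.
zld intron, optimal peak, chrX:19770150-19770350: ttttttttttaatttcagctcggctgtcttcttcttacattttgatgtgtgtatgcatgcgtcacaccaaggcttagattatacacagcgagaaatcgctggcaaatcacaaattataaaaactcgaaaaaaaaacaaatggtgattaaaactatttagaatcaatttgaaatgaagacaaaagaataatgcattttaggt
zld upstream, below the threshold, chrX:19788095-19788295: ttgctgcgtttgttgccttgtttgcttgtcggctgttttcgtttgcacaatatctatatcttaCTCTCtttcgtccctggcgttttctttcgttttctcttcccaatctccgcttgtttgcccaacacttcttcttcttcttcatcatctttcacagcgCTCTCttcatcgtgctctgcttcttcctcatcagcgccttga
Clamp promoter, below the threshold, chr2L:22169271-22169471: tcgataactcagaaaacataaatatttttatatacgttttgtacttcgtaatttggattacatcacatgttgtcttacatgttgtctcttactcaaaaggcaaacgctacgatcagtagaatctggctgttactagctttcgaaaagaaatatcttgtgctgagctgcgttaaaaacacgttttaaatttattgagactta
Clamp coding exon, below the threshold, chr2L:22167342-22167542: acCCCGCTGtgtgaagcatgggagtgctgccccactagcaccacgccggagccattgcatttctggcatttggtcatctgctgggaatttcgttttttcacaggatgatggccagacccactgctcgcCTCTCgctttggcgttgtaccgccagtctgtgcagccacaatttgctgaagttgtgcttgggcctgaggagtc
opa promoter, below the threshold, chr3R:4852452-4852652: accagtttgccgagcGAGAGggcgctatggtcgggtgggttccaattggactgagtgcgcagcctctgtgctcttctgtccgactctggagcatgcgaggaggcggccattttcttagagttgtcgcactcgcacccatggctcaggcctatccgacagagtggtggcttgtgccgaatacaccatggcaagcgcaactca
The strongest zld and Clamp peaks held no GAGAG in these windows and were AT-rich, with a GC content of 30.8% and 32.3%. The opa promoter window held 1 GAGAG and had a GC content of 58.7%.

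Optimal peaks were present at zld and grh and absent at Clamp and opa. This makes 2 of 4 genes, beside 51.2% of all protein-coding genes (7137 of 13945) with an optimal summit by the same window, so the count was close to the background. Among the stronger 50% of the optimal peaks, 1 of the 4 genes, grh, had one, beside 33.6% of all protein-coding genes. The window of grh held 3 optimal peaks and that of zld held 2. Only 1 peak of each gene lay inside the gene body, and the other 3 lay in or next to neighbouring genes. The nearest protein-coding start site was that of the gene itself for 1 of the 5 peaks, the intronic grh peak. In the gene body alone 12.9% of all protein-coding genes had an optimal summit. No promoter of the 4 genes, meaning 500 bp to either side of a start site, had an optimal summit, while 22.9% of all protein-coding genes did. At least 1 pooled peak lay in the window of all 4 genes and of 89.3% of protein-coding genes.

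**Figure D1:**
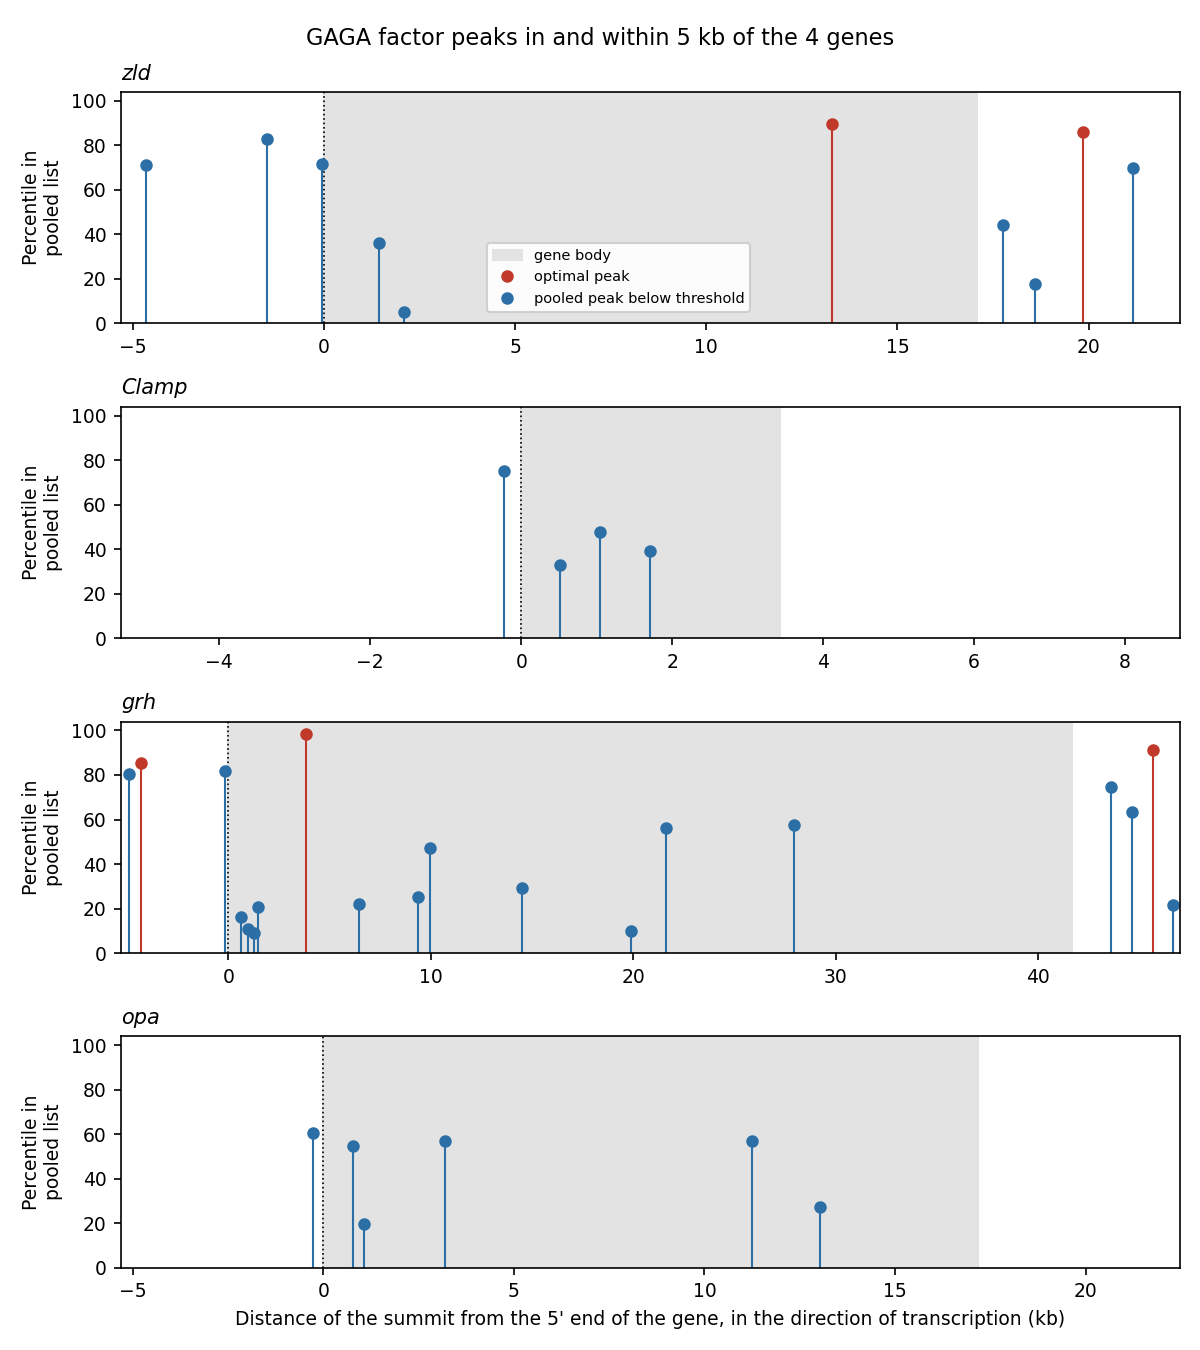
Pooled peaks at zld, Clamp, grh and opa. The x axis is the distance of each summit from the 5' end of the gene in the direction of transcription (kb) and the y axis the percentile of its signal among the 30000 pooled peaks. Each vertical line is 1 peak, red for optimal peaks and blue for peaks below the threshold, and the grey area is the gene body. The 5 red peaks lie at zld and grh only, and the tallest is in the grh intron at rank 431.

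The strongest peak at any of the 4 genes lay in an intron of grh. grh (FBgn0259211) occupies 2R from 17801132 to 17842820 on the plus strand of dm6, has 5 start sites and spans 41689 bp. The peak covered 17804841 to 17805033, with its summit 2090 bp downstream of the nearest grh start site, and lay within 5 of the 8 annotated grh transcripts. It stood at rank 431 of the pooled list and at ranks 464, 474 and 402 in replicates 1, 2 and 3. The ranks of the 3 replicates were close to each other, and the mean percentile was 98.5 ± 0.130 (SD, n = 3). Its window held 1 GAGAG. All optimal peaks had passed the authors' reproducibility threshold, so close ranks between replicates at such peaks are not independent support.

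The other 2 optimal peaks near grh lay at its neighbours. The one at 17846602 to 17847011, 3987 bp beyond the 3' end of grh, was in the 5' UTR of olf186-M, 108 bp downstream of that gene's start site. It ranked 4359, 2082 and 3700 in replicates 1, 2 and 3 (88.7 ± 3.91 percentile, SD, n = 3), all within the top 4900 of each list. The one at 17796582 to 17796991, 4345 bp upstream of grh, was in an intron of Dhit and held 1 GAGAG. Its ranks were 5429, 4255 and 4259 (84.5 ± 2.26 percentile, SD, n = 3), so that replicate 1 placed it outside its top 4900. The next optimal summit outside the window lay 6169 bp beyond the 3' end of grh, in an intron of Orai, at rank 4800.

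zld (FBgn0259789) occupies X from 19766465 to 19783548 on the minus strand. Its strongest peak covered 19770045 to 19770454 in an intron, 12893 bp downstream of the nearest zld start site. Of the 5 annotated zld transcripts, 1 (zld-RD) reaches this position, and the other 4 end before it. The peak ranked 3071 in the pooled list and 3268, 3050 and 3221 in replicates 1, 2 and 3. These overlapping peaks had close ranks, at the 89.4 ± 0.382 percentile (SD, n = 3), below the intronic grh peak. The summit of replicate 3 lay 109 bp from the pooled summit, and with summits required within 100 bp the mean was 59.6. The second optimal peak, at 19763494 to 19763903, lay 2766 bp beyond the 3' end of zld in an intron of CG12702. It ranked 7201, 3332 and 4435 in the 3 replicates (83.4 ± 6.64 percentile, SD, n = 3), with replicate 1 the lowest and outside its top 4900. The next optimal summit outside the window was 15561 bp away, beside Abcd3, at rank 2379.

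Another zld peak stood just below the authors' threshold. It lay in intergenic sequence 1492 bp upstream of the zld start site, from 19784835 to 19785244, at rank 5080 with a −log10 q-value of 3.31, where the lowest value among optimal peaks was 3.49. Replicate 2 placed it at rank 3588, replicate 3 at 5311 and replicate 1 at 13037. The spread between replicates was therefore wide, at the 75.6 ± 16.8 percentile (SD, n = 3).

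Clamp and opa had no optimal peak in their windows. Clamp (FBgn0032979) occupies 2L from 22165720 to 22169143 on the minus strand, and the nearest optimal summit lay 43763 bp away, at CG3651. opa (FBgn0003002) occupies 3R from 4852813 to 4869979 on the plus strand. The nearest optimal summit to opa was 5850 bp upstream of its start site, outside the window by less than 1 kb. This peak covered 4846758 to 4847167 in intergenic sequence, its nearest protein-coding start site was that of opa, and it ranked 3838 in the optimal list. Its ranks in replicates 1, 2 and 3 were 3727, 2929 and 9114 (82.5 ± 11.2 percentile, SD, n = 3), and it held no GAGAG. Whether opa counts as a gene with a peak thus depended on the window.

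All 4 genes had a pooled promoter peak below the threshold, against 54.4% of protein-coding genes with a pooled summit within 500 bp of a start site. That share makes no allowance for the number of start sites, which was 5 for grh, 2 for zld and 1 for Clamp and opa. At grh 5 such peaks were present, and the strongest lay 162 bp upstream of the most upstream start site. The promoter peak of grh described here had ranks of 5359, 8979 and 5122 in replicates 1, 2 and 3 (78.4 ± 7.21 percentile, SD, n = 3). For Clamp it lay 228 bp upstream and ranked 6570, 10101 and 8278 (72.3 ± 5.89 percentile). All 3 replicate lists held a peak overlapping each of these. At Clamp the summit of replicate 3 lay 176 bp from the pooled summit, and with summits required within 100 bp the mean was 48.1. For zld the peak lay 48 bp upstream and ranked 10317, 6376 and 27113 (51.3 ± 36.7 percentile), low in replicate 3. For opa it lay 261 bp upstream, at ranks 6050 and 9359 in replicates 1 and 2, while replicate 3 had no overlapping peak (49.5 ± 43.3 percentile with replicate 3 at 0, and 74.3 without replicate 3). With summits required within 100 bp the opa mean was 26.6. The pooled ranks were 5435 for grh, 7427 for Clamp, 8507 for zld and 11885 for opa. The median rank of the strongest promoter peak was 6295 over the 7588 genes that had one, and 11728 over the 4395 of them with no optimal promoter peak. The spans of the zld and opa promoter peaks over replicates overlap each other and those of Clamp and grh, so no order among the promoters is given.

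**Figure D2:**
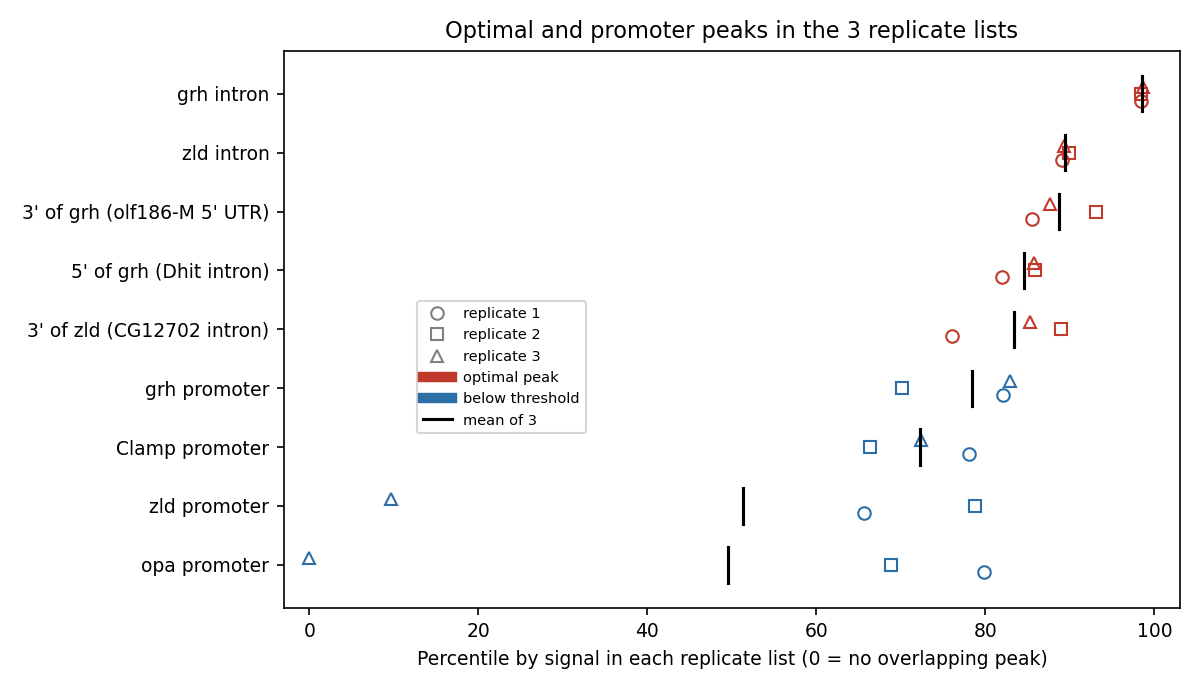
The 5 optimal peaks and the strongest promoter peak of each gene in the 3 replicate lists. The x axis is the percentile by signal in each list of 30000 peaks, with 0 for no overlapping peak; open symbols are replicates, black bars their means, red is optimal and blue below the threshold. The intronic grh and zld peaks have means of 98.5 and 89.4 with the narrowest spreads. The zld and opa promoters drop to 9.63 and 0 in replicate 3. Optimal peaks were selected by the authors' reproducibility threshold, so the difference in spread between red and blue is not an independent result.

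Of the 34 pooled peaks below the threshold in the 4 windows, 12 overlapped a peak in all 3 replicate lists, 9 in 2 lists and 13 in 1 list. Over the whole pooled list 37.0% of peaks below the threshold overlapped a peak in all 3 lists (9275 of 25100), and 12 of 34 is near this share. By gene the counts in all 3 lists were 4 of 8 for zld, 1 of 4 for Clamp, 7 of 16 for grh and 0 of 6 for opa. Neighbouring pooled peaks at the grh start sites, and a pair in a coding exon of opa, overlapped the same replicate peaks, so these counts are not independent. Introns of the member genes held 11 of the 34, coding exons 5 and 5' UTRs 5. The remaining 13 lay outside the gene bodies. The windows held 8, 12 and 9 replicate peaks at zld in replicates 1, 2 and 3, 3, 3 and 2 at Clamp, 18, 19 and 14 at grh, and 9, 7 and 4 at opa. Among each replicate's own top 4900 peaks, the zld window held 1, 3 and 3, the grh window held 3 in each replicate, and the Clamp and opa windows held 0 in each. Of all protein-coding genes 51.2%, 50.9% and 50.7% had such a peak in their window in replicates 1, 2 and 3.

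Gene length differs widely among the 4, and long windows hold more peaks. Each gene was therefore set beside all other protein-coding genes with a window length within 10% of its own. At the length of zld 67.6% of 386 genes had an optimal summit in the window and 40.4% in the gene body. At the length of grh the shares were 69.9% and 53.6% of 166 genes. At the length of opa, which had no optimal peak, they were 68.4% and 41.2% of 386 genes, and at that of Clamp, also without one, 55.2% and 9.66% of 3571 genes. A count of 2 or fewer, as at zld, was found in 74.9% of genes of its length, and 3 or fewer, as at grh, in 80.1%. No optimal summit, as at Clamp and opa, was found in 44.8% and 31.6% of genes of their lengths. Having no optimal summit was thus common at the lengths of Clamp and opa. At the lengths of zld and grh the median was 1 optimal summit. Only the genes outside the 74.9% and 80.1% given above held more than zld and grh did, up to 8 and 10. Pooled peaks stood at 3.69 per 10 kb of window for zld, 2.98 for Clamp, 3.68 for grh and 2.21 for opa, beside a median of 2.84 over all protein-coding genes.

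**Figure D3:**
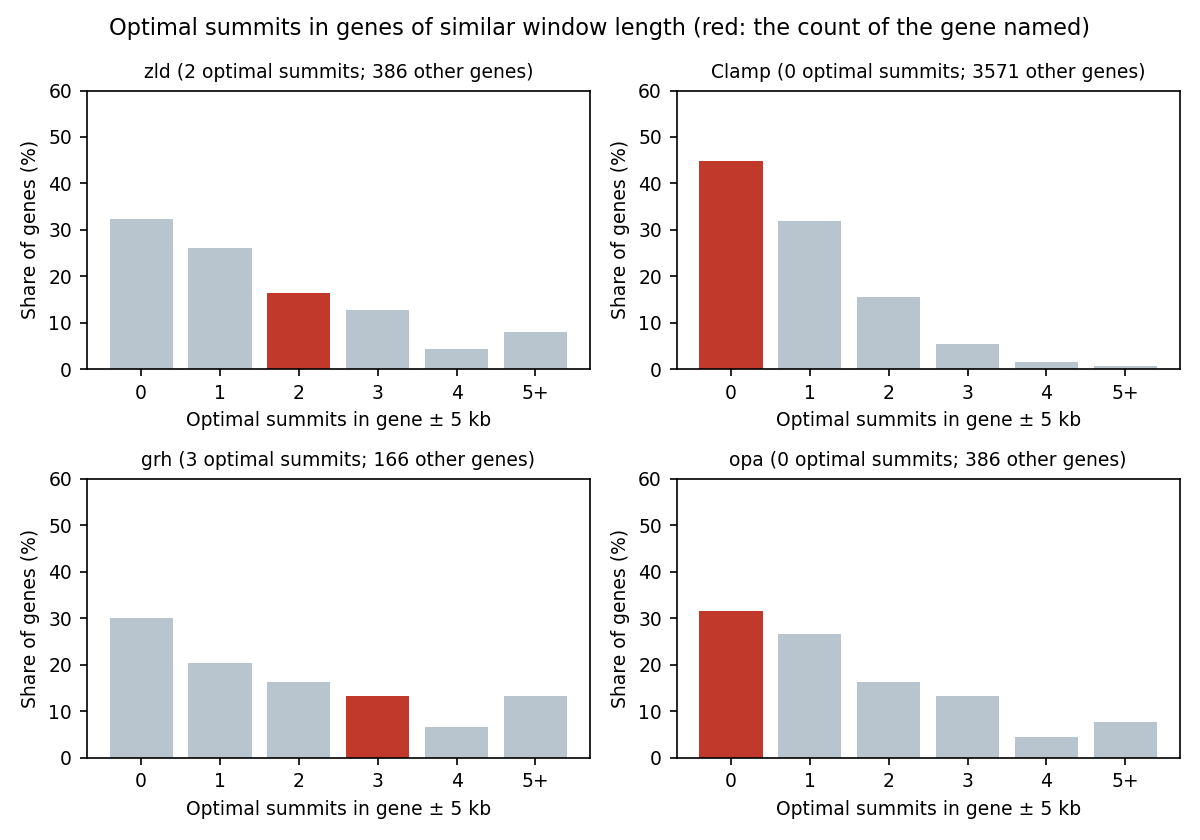
Optimal summits in the window of genes as long as zld, Clamp, grh and opa. The x axis is the number of optimal summits in the gene or within 5 kb, the y axis the share of other protein-coding genes with a window length within 10% (386, 3571, 166 and 386 genes), and the red bar is the class that the named gene belongs to. zld and grh, with 2 and 3 summits, fall above the most frequent class, which is 0 in all 4 panels and holds Clamp and opa.

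Genes of the same length with the most similar counts and ranks were RtGEF and PlexA for zld, each with 2 optimal summits and a strongest rank of 3172 and 3186. For grh they were CG6959 and Btk, each with 3 optimal summits and a strongest rank of 417 and 502. For Clamp they were Ero1L and Gagr, with no optimal summit and a strongest pooled rank of 7419 and 7435. For opa they were Frq1 and hlk, with no optimal summit and a strongest pooled rank of 11858 and 11793.

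GAGAG, the core of the GAGA factor site, was sought on both strands within 100 bp of each summit. It was present at 2 of the 5 optimal peaks, the intronic grh peak and the peak upstream of grh, beside 32.6% of all optimal peaks. Of the 34 peaks below the threshold 12 held it, beside 28.2% of all peaks below the threshold. By gene it was present at 2 of 10 pooled peaks of zld, 1 of 4 of Clamp, 8 of 19 of grh and 3 of 6 of opa. The windows richest in GAGAG at these genes were not at the strongest peaks. A weak grh intron peak at rank 26966, found in replicate 3 alone, held 12 overlapping GAGAG matches, a number reached at 1.00% of optimal peaks and 0.303% of peaks below the threshold. The peak at rank 5811 in the Dhit intron, 4923 bp upstream of grh, held 6, a number reached at 5.06% and 1.92%. The strongest grh peak held 1.

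Other sites were sought in the same windows. The longer GA repeat GAGAGAG, whose matches all contain GAGAG, was found at 3 of the 39 peaks, all at grh and below the threshold, with 6.93% of all pooled peaks holding it. The Zelda site CAGGTAG and the Grainyhead site AACCGGTT were found at none of the 39 peaks, with 1.12% and 0.317% of all pooled peaks holding them. The Odd-paired core CCCGCTG was found at 2, in a coding exon of Clamp and an intron of grh, with 2.56% of all pooled peaks holding it. Within 250 bp, CAGGTAG stood at 4 of the 39 peaks, all below the threshold, beside 3.04% of all pooled peaks. In that wider window CCCGCTG stood at 5 of the 39, beside 6.18%, and AACCGGTT at none, beside 0.847%. The 5 optimal peaks had a GC content of 30.8% to 39.8% (median 33.3%), beside a median of 38.3% over all optimal peaks. The 34 peaks below the threshold ranged from 30.3% to 68.2% (median 48.3%), beside 45.3% over all peaks below the threshold, and the 6 summits in coding exons from 56.2% to 68.2%. The part of base composition in the ranks was not tested.

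Genes related to the 4 by family, partnership or regulation were placed by the same window rule. Of 11 other genes whose products have reported roles in opening or priming chromatin, all 11 had an optimal summit in their window. They were Trl, psq, bcd, cad, srp, GATAe, Eip93F, SoxN, D, nub and pdm2, with strongest ranks from 56 to 4050. Trl and bcd, which encodes the maternal anterior determinant, ranked highest, at 56 and 770 (99.8 ± 0.0287 and 97.3 ± 0.586 percentile of the replicate lists, SD, n = 3). In 6 of the 11 an optimal summit lay at a promoter, beside 22.9% of all protein-coding genes. That comparison makes no allowance for gene length or the number of start sites. The genes srp and GATAe, which encode GATA factors, were assigned the same peak at rank 3936. The nearest start site to the strongest peak belonged to another gene for 4 of the 11 (CG42507 at Trl, Pomp at cad, GATAe at srp and Idh3b at Eip93F). Genes of the same lengths had an optimal summit in a mean of 64.6% of cases. With a window of 2 kb 8 of the 11 had one, beside 37.7% of all protein-coding genes. In the top 4900 of replicates 1, 2 and 3 alone, 8, 11 and 9 of them had a peak. The shares of all protein-coding genes there were 51.2%, 50.9% and 50.7%, without allowance for length. By gene body alone 5 of the 11 had one, beside 12.9% of all protein-coding genes. That share makes no allowance for length, and the 11 genes had a median window of 23121 bp, against 12166 bp over all genes. At the window lengths of zld and opa, 27084 and 27167 bp, the gene-body share was 40.4% and 41.2%. Among the stronger 50% of the optimal peaks 6 of the 11 had one, beside 33.6% of all protein-coding genes, again without allowance for length. This list was assembled with some of these peaks already known, and the difference from zld, Clamp, grh and opa was not tested.

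Zelda-dependent early zygotic genes had an optimal summit in 4 of 15 windows, with a mean of 51.6% for genes of the same lengths. The strongest were at Sry-alpha, a cellularization gene, at rank 86, where the nearest start site was that of CG7943, and at sog, which encodes an inhibitor of Dpp signalling, at rank 498 in the gene itself. bnk and dpn were among those without one. Grainyhead targets had one in 7 of 10 windows (62.3% for genes of the same lengths), led by ple, which encodes tyrosine hydroxylase, at rank 214 and Fas3, a septate junction gene, at rank 633. The ple peak lay 4162 bp from the gene, nearest to CG8519, and Ddc and kkv had none. In only 3 of the 7 was the start site nearest to the strongest peak that of the listed gene. Segmentation genes regulated by Odd-paired had one in 5 of 10 windows (52.9% for genes of the same lengths), led by slp2 at rank 174 and slp1 at rank 2212. The slp2 peak lay 4309 bp from slp2, and the slp1 peak 835 bp from slp1. No optimal summit lay at a promoter or in a gene body of any of the 10, and en and eve had none in their windows. Over all protein-coding genes the shares were 22.9% for promoters and 12.9% for gene bodies, without allowance for length. MSL complex genes had one in 3 of 5 windows (55.9%), at mle (rank 1235), mof (rank 2375) and msl-1 (rank 4168, at its promoter), but not at msl-2 and msl-3. In replicates 1, 2 and 3 the msl-1 peak ranked 4100, 2850 and 11558 (79.4 ± 15.7 percentile, SD, n = 3). The mof peak ranked 1518, 2047 and 6056 and the mle peak 2386, 1238 and 895, so replicate 3 placed msl-1 and mof outside its top 4900. The start site nearest to the mle peak was that of BubR1, and to the mof peak that of Usp30. The family members had one in 2 of 4 windows (62.5%), at gem, the paralogue of grh, at rank 975 (1000, 1966 and 559 in replicates 1, 2 and 3), and at lmd, a GLI and ZIC type zinc finger gene, at rank 3143. The start site nearest to the gem peak was that of CG46319. ci and sug had none. Lists of this size give shares with a wide error, and no list was tested.

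**Figure D4:**
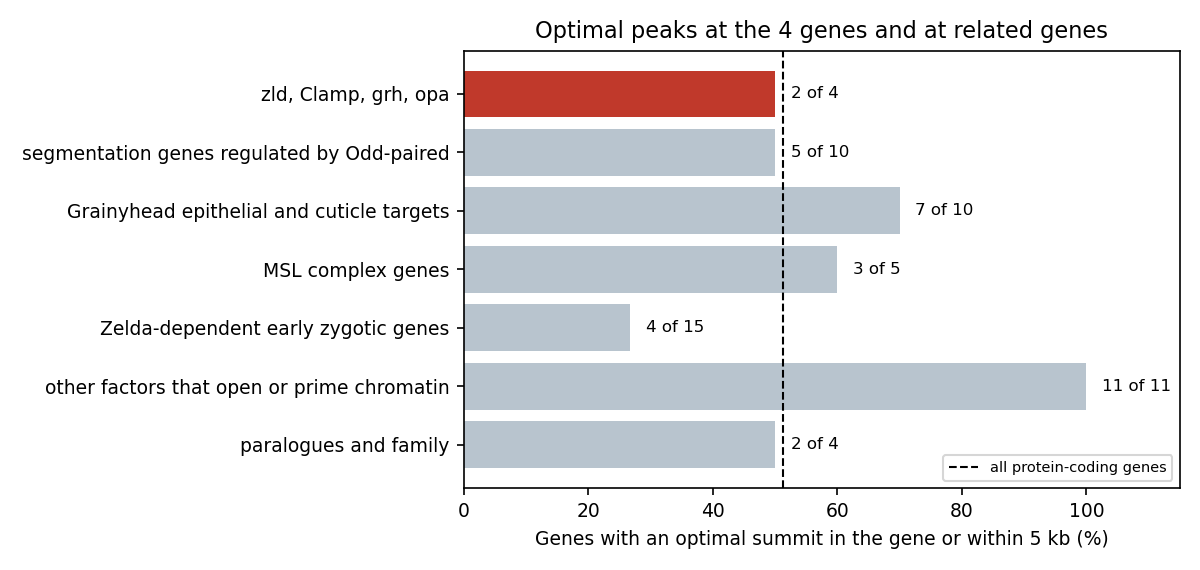
Genes with an optimal summit in the gene or within 5 kb, as a share of each list (%), with the counts printed beside the bars. The dashed line is the share of all protein-coding genes, 51.2%. The 4 early factor genes (red, 2 of 4) lie at the line, the other factors that open or prime chromatin (11 of 11) above it and the Zelda-dependent genes (4 of 15) below it, without allowance for gene length.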

How the data were processed

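Chromatin was sonicated to 200 to 800 bp, per the labels. The authors deposited peak lists on dm6: 1 of 30000 peaks for each replicate and 1 pooled, both described in the deposited text notes as peaks and background for IDR (irreproducible discovery rate), and an optimal list of 4900 peaks past an IDR threshold, which was the top 4900 of the pooled list. No aligner, caller or version is named by the sources used here. The signal is the authors' deposited score per peak, its scale is not stated, and it served to order the peaks of each list. The −log10 q-value of a peak is the authors' deposited value, and the summit is their offset. The dm3 lists and the control were not used here.

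Gene models were those of Ensembl release 115, with bases from RefSeq Release 6, both in dm6 coordinates. All peaks ended within the reference arm lengths. A replicate rank is that of the strongest replicate peak sharing at least 1 bp with the peak, its percentile counts from the weakest of 30000, and a peak without one was given 0. Of 55 list entries all matched the annotation, 2 of them by synonym (h as hry, stit as Cad96Ca). The genes and lists were chosen with earlier results of these data known, so no test was run and values stand beside those of all genes or peaks. Named genes follow a rule: all optimal peaks of the 4 genes, the strongest peaks below the threshold, and up to 2 genes with the strongest and 2 without an optimal peak per list. The chromatin factors, the GAGAG-rich peaks, msl-1 and the neighbouring genes were named after their values were seen. Alternatives are given below. Counting code was checked on simulated data. Python 3.11.15, numpy 2.4.6 and pandas 2.3.3 were used.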

Additional observations from a re-analysis of the deposited data

How the results depend on the processing

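Leaving out replicates aside, 98 of 131 values recomputed under alternatives stayed within 1.5 times (counts) or 1 SD of the replicates (percentiles). Some of them could hardly move. At Clamp and opa the strongest peak is the promoter peak, so the promoter alternative repeats the main value. For opa 1 SD is 43.3, so a fall from 49.5 to 26.6 still counts as unchanged. The shares of all genes in this paragraph make no allowance for gene length. With gene bodies only (12.9% of all genes had an optimal peak), zld and grh had 1 each. By list, 5 chromatin factor, 2 Zelda-dependent, 0 family, 0 MSL, 0 segmentation and 5 Grainyhead target genes had one. At 2 kb (37.7% of all genes) zld and grh had 1 each, and the family and segmentation lists 1 each. At 10 kb (65% of all genes) grh had 5, opa 1 and the MSL list 5. In the stronger 50% of the optimal peaks (33.6% of all genes) 1 of the 4 genes had a peak, zld had 0 and grh 1, and the chromatin, family and segmentation lists had 6, 1 and 2. In the top 4900 of replicate 1 alone (51.2% of all genes) zld had 1 peak. In that of replicate 3 alone (50.7% of all genes) the MSL list had 1 gene. GAGAG stood at 1 of the 5 optimal peaks within 50 bp, and GAGAGAG at 0. The promoters held no optimal summit at 100 or 1000 bp. Matching replicate peaks by summits within 100 bp gave the strongest peaks of zld, Clamp and opa a percentile of 59.6, 48.1 and 26.6, since a replicate without a match counts as 0. A reciprocal overlap of 0.5 gave 0 for grh, whose peak covers less than 0.5 of a replicate peak. The promoter peak in place of the strongest, chosen after seeing the data, gave 51.3 for zld and 78.4 for grh. Leaving out each replicate in turn gave 89.2 to 89.6 for zld, 69.4 to 75.3 for Clamp, 98.4 to 98.6 for grh and 34.4 to 74.3 for opa. The cause of the other changes was not tested. Depth is unknown, so no limit of detection is given.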
